A study of Mus musculus with 24 samples.

Results

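Genes of the synaptic vesicle cycle and of neurons in general were followed in the ventromedial hypothalamus (VMH), a cluster of mostly glutamatergic neurons that regulates energy expenditure and glucose balance. The set holds 35 genes, named one by one by symbol, of 30142 genes that had a feature with a single symbol on the array. Each of the 35 was represented by 1 feature, and all 35 passed the filter on dim features in the VMH. They were chosen for what they encode, with earlier results of these data known. The study's 24 arrays cover the VMH and brown adipose tissue (BAT) in 8 groups of 3. The 4 VMH groups are compared here: mice labelled Gfap-Bmal1 cKO on high fat diet (HFD), control mice on HFD, Gfap-Bmal1 cKO mice on standard diet (SD), and control mice on SD. Every mouse had eaten its diet for 16 weeks, and the VMH was cut out of frozen brain sections. The label places the deletion of the clock gene Bmal1 under Gfap, a gene of astrocytes, so neurons are not the cells that the label targets. The sample titles call the controls WT and the cKO mice KO. The sources used here do not give the strain, age or sex of the mice, any further alleles, or the Cre line. They also leave unstated whether each array holds a different mouse, so the p-values below describe array-to-array spread, part of which may be technical.

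A nerve terminal stores transmitter in vesicles. Synaptotagmins sense calcium and trigger the fusion of vesicle and plasma membrane, which is driven by a bundle of SNARE proteins made of VAMP on the vesicle and syntaxin and SNAP-25 on the target membrane. Complexins clamp and assist that bundle, RIM, Munc13, Bassoon and Piccolo organise the active zone where fusion takes place, and neurexins and neuroligins tie the terminal to the receptors on the other side. Neurofilaments, neuronal tubulin and MAP2 form the cytoskeleton of axons and dendrites. In a piece of bulk tissue the levels of such genes follow both the number of neurons and the RNA in each of them, and fewer neurons cannot be told apart from less RNA per neuron.

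The deposited values are log2 signals, with array medians between 5.482 and 5.572 in the VMH, and arrays correlated at 0.992 to 0.997 over 16211 genes tested. As a check of the tissue, the same features were read in BAT, where 25 of the 35 genes lay under the filter threshold of that tissue, a log2 signal of 4.127. The median percentile of the 35 genes among all genes was 90.3 in the VMH and 32.7 in BAT, and all 35 had the higher percentile in the VMH. Of 9 markers of VMH neurons (among them Nr5a1, Fezf1 and Adcyap1) all 9 passed the filter in the VMH, as did 16211 of 30142 genes. Of 14 markers of neighbouring hypothalamic neurons 12 passed as well. These averaged 9.87 to 11.03 on single VMH arrays, against 9.23 to 9.79 for the VMH markers. Passing the filter therefore does not separate the VMH from neighbouring nuclei. The targeted gene, listed as Arntl, was not lower in the cKO groups, with 9.19 ± 0.30 in cKO and 8.95 ± 0.23 in control on HFD, and 9.17 ± 0.21 in cKO and 8.62 ± 0.16 in control on SD (SD, n = 3 each). Which part of the gene was deleted is not stated, so this feature may lie outside it, and bulk tissue also holds cells that the label does not target. The reason was not tested, and each genotype direction below rests on the label. Of 9 markers of pituitary, choroid plexus and meninges 4 passed the filter. Gh was the only pituitary gene among them and passed through a single array. The second cKO HFD array stood apart in Gh, the growth hormone gene of the pituitary, with 13.74, against 4.80 to 5.47 on the other VMH arrays. The choroid plexus markers Kl and Kcnj13 lay within the range of the other arrays there, and Clic6 (9.45) just above it (highest other array 9.41). The medians for genotype on HFD, for diet in cKO mice and for the interaction, and the value of Tubb3 on HFD, are also given without it.

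No neuron gene of the set passed the threshold in any VMH comparison. The test was limma with Benjamini-Hochberg adjustment over all 16211 genes and a threshold of 0.05. Between cKO and control arrays 0 of 35 passed on HFD (0.302% of all genes did), 0 of 35 on SD (0.271%) and 0 of 35 averaged over diets (0.66%). Between HFD and SD 0 of 35 passed in cKO arrays (0.00617%) and 0 of 35 in controls (0.0%), and 0 of 35 passed for the interaction of genotype and diet (0.0%). At an unadjusted p under 0.05, 4 members lay past the limit for genotype on HFD, where 11.3% of all genes did. Of these 3 were higher (7.75% of all genes) and 1 was lower (3.55%). On SD there were 0 (6.71%), with 4.59% of all genes higher and 2.12% lower. Averaged over diets there were 4 (11.5%), with 2 higher (8.45%) and 2 lower (3.01%). For diet there were 9 in cKO arrays (9.56%), all 9 higher (7.38%) and 0 lower (2.18%). In controls there were 6 (8.49%), with 4 higher (6.38%) and 2 lower (2.12%). For the interaction there were 2 (5.62%), both higher (3.19%) and 0 lower (2.43%). The members were measured on the same arrays and are not independent of each other.

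The intervals describe how closely the differences between these arrays were estimated. They do not bound a change between mice, since it is unstated whether each array holds a different mouse. Averaged over diets, the 95% interval of the genotype difference lay within a 1.5-fold change in both directions for 34 of the 35 genes, Cplx1 being the exception. The median half-width of those intervals was 0.134 on the log2 scale. For the single comparisons the number was 33 for genotype on HFD, 31 for genotype on SD, 30 for diet in cKO and 31 for diet in controls, with a median half-width of 0.190. The median SD within groups was 0.105 for the members and 0.119 for all genes tested.

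**Figure D1:**
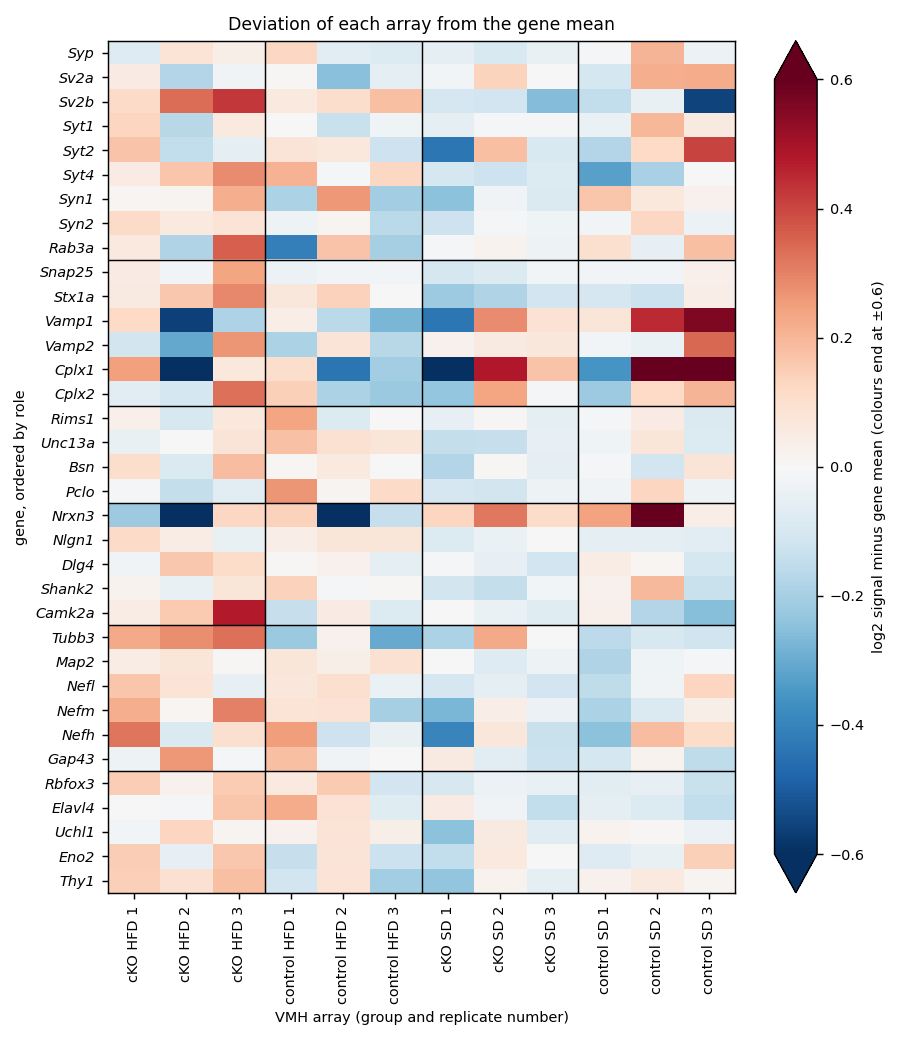
Deviation of each VMH array from the mean of its gene in log2 signal, for 35 neuron genes (rows, grouped by role) and 12 arrays (columns, grouped by genotype and diet). Most genes stay within a narrow band, while Cplx1, Vamp1 and Nrxn3 vary by over 1 between arrays of the series.

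Across the 12 arrays, 20 of the 35 genes varied by less than 0.5 in log2 signal from the lowest to the highest array, and 3 varied by more than 1. The steadiest was Nlgn1, which encodes neuroligin 1, a postsynaptic adhesion protein, with a range of 0.196. Map2, the dendritic microtubule protein, ranged over 0.270 and Dlg4, which encodes the scaffold PSD-95, over 0.276. The widest ranges were those of Cplx1 (complexin 1) at 1.81, Nrxn3 (neurexin 3) at 1.30 and Vamp1 at 1.12. Extremes were unevenly spread over the arrays. The third cKO HFD array held the highest value of 12 members, and the first cKO SD array held the lowest value of 13, as the map of deviations shows.

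On HFD, the genes of the vesicle membrane and calcium sensing differed little between cKO and control arrays: 8 of 9 were positive, between -0.016 and 0.224, with a median of 0.060. Syn2, a synapsin that tethers vesicles, had 10.95, 10.89 and 10.91 in cKO arrays, against 10.80, 10.85 and 10.67 in control arrays. These arrays did not overlap, and the difference of 0.144 ± 0.067 (SE) had a limma adjusted p of 0.460. Rab3a, the vesicle GTPase, had the highest difference of the group, 0.224 ± 0.153 (SE), with overlapping arrays. Among SNARE genes and complexins 4 of 6 were positive, with a median of 0.072. Snap25, which encodes the SNARE partner on the plasma membrane, had 18.42, 18.36 and 18.61 in cKO arrays, against 18.33, 18.36 and 18.35 in controls, near the top of the table's scale (19.93), and held only 8 distinct values on the 12 arrays.

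The largest statistic on HFD belonged to the cytoskeletal gene Tubb3, which encodes the neuronal tubulin beta 3. Its log2 signal was 12.72, 12.77 and 12.82 in the cKO arrays, against 12.26, 12.51 and 12.18 in the control arrays. All cKO arrays lay above all control arrays, the group means being 12.77 ± 0.050 and 12.32 ± 0.172 (SD, n = 3 each). The difference of 0.445 ± 0.107 (SE; 95% interval 0.209 to 0.682) had a limma adjusted p of 0.160. With weights estimated for each array it was 0.491 and passed (adjusted p = 0.0425), and over the other alternatives the adjusted p ranged from 0.112 to 0.489, and without cKO HFD array 2 the difference was 0.445 with an adjusted p of 0.438. The other cytoskeletal genes lay between -0.026 for Map2 and 0.187 for the neurofilament gene Nefm.

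Thy1, a surface glycoprotein of neurons, had 10.94, 10.88 and 10.98 in cKO HFD arrays, against 10.68, 10.88 and 10.59 in control HFD arrays, just clear of overlap. Its difference of 0.218 ± 0.085 (SE) had an adjusted p of 0.377. Camk2a, which encodes a calcium-dependent kinase of the postsynaptic density, had 14.81, 14.92 and 15.24 in cKO arrays, against 14.62, 14.81 and 14.68 in controls. The highest control array reached the lowest cKO array, and the difference was 0.282 ± 0.110 (SE; limma adjusted p = 0.376). The third cKO array was the highest of the 6 in both genes.

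Of the 4 active zone genes 3 had negative differences on HFD, as did 3 of the 5 genes of adhesion and the postsynaptic density, and none passed. Pclo, which encodes Piccolo, had 12.98, 12.85 and 12.93 in cKO arrays, against 13.26, 13.01 and 13.11 in controls. The arrays did not overlap, and the difference was -0.206 ± 0.076 (SE; limma adjusted p = 0.349). Unc13a, which encodes the vesicle priming factor Munc13-1, had 8.998, 9.04 and 9.12 in cKO arrays, against 9.22, 9.13 and 9.11 in controls, a difference of -0.103 ± 0.063 (SE; adjusted p = 0.562). Rims1, which encodes RIM1, had 10.47, 10.35 and 10.51 in cKO arrays, against 10.68, 10.36 and 10.44 in controls (-0.053 ± 0.083, SE). Bsn, which encodes Bassoon, differed by 0.045.

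Over the 35 genes on HFD, 23 differences were positive, with a median of 0.051, while 59.6% of all genes tested were positive, with a median of 0.029. After quantile normalization of the arrays 17 members were positive and the median was -0.00709, while 47.3% of all genes were positive under that scaling, with a median of -0.00728. The median also moved with single arrays: it was 0.118 without cKO HFD array 2, 0.088 without control HFD array 1, 0.0210 without control HFD array 2, 0.0319 without control HFD array 3 and 0.0337 without cKO HFD array 3. Arrays did not overlap for 3 members that were higher (13.1% of all genes) and 1 that was lower (7.08%). Beside this, the 15 oligodendrocyte markers measured averaged between 9.41 and 9.60 on the cKO HFD arrays and between 9.80 and 10.03 on the control HFD arrays, with 12 of the 15 negative, and their part in the neuron genes' values was not tested.

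**Figure D2:**
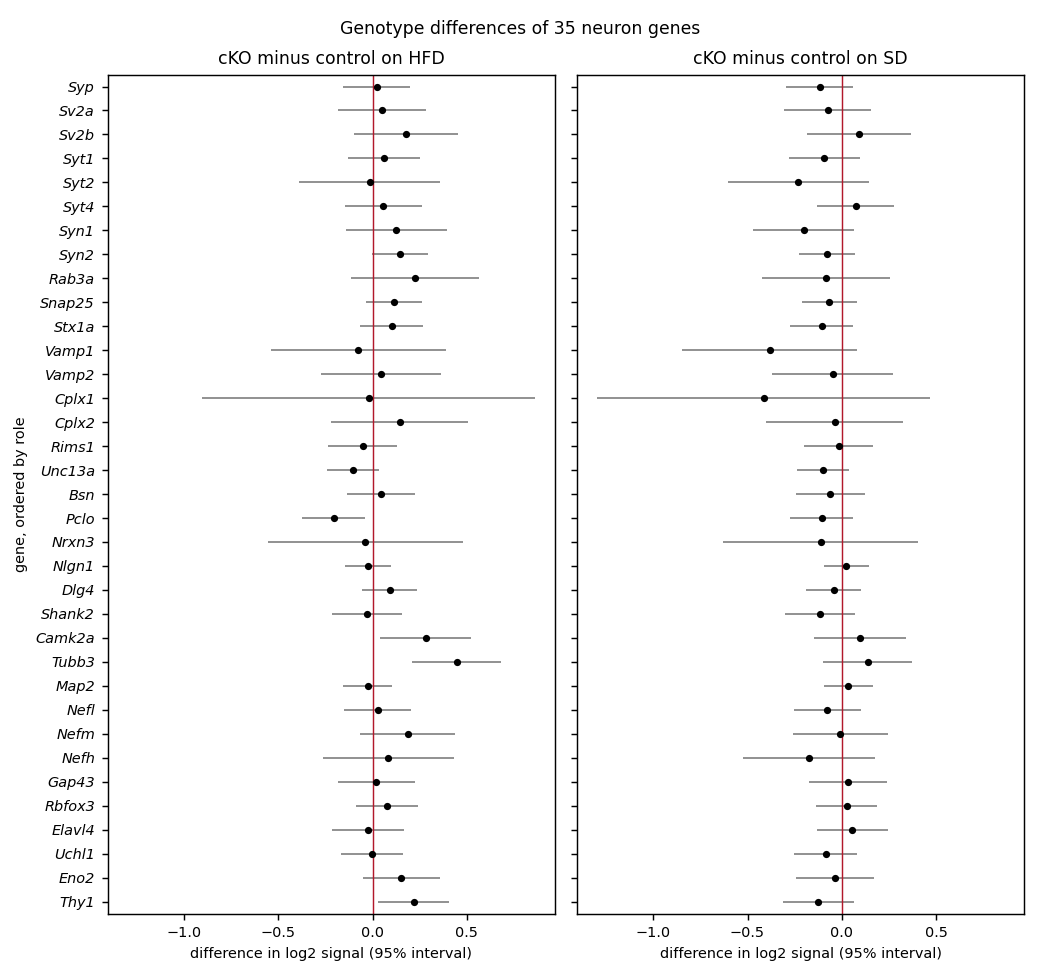
Differences in log2 signal between cKO and control arrays on HFD (left) and SD (right) for 35 neuron genes, with 95% intervals from limma. Tubb3 on HFD stands farthest above 0, and Pclo on HFD is the gene whose whole interval lies below 0.

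On SD the median of the members lay below that of all genes tested. Of the 35 genes 26 had negative and 9 positive differences, with a median of -0.0752, against a median of 0.019 over all genes tested, of which 57.3% were positive. After quantile normalization 6 members were positive and the median was -0.0928, with 50.2% of all genes positive. The median was -0.0338 without control SD array 2 and -0.0482 without cKO SD array 1. All 6 SNARE and complexin genes and all 4 active zone genes were negative, as were 7 of the 9 vesicle genes, whereas 3 of 6 cytoskeletal genes were positive. None of the 35 reached an unadjusted p under 0.05.

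The lowest statistic on SD was that of Vamp1, a vesicle SNARE of fast-firing neurons, with 10.83, 11.54 and 11.35 in cKO arrays, against 11.33, 11.71 and 11.82 in controls. The groups overlapped, and the difference was -0.382 ± 0.210 (SE; limma adjusted p = 0.815). Syn1, which encodes synapsin 1, had 12.89, 13.11 and 13.05 in cKO arrays, against 13.30, 13.20 and 13.16 in controls, without overlap, a difference of -0.202 ± 0.121 (SE; adjusted p = 0.830). Unc13a had 8.90, 8.90 and 8.99 in cKO arrays, against 9.02, 9.12 and 8.96 in controls, and the highest cKO array lay above the lowest control (-0.100 ± 0.063, SE). Syp and Pclo also had arrays that did not overlap, at -0.118 and -0.107, which makes 3 members lower in this way (2.92% of all genes) and 0 higher (7.01%). Both were barely clear. The highest cKO and the lowest control array were 9.981 and 9.991 for Syp, and 12.9582 and 12.9584 for Pclo.

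The highest statistics on SD were those of Tubb3, Camk2a and Syt4. Tubb3 had 12.30, 12.71 and 12.49 in cKO arrays, against 12.33, 12.39 and 12.37 in controls, so that the cKO arrays spread on both sides of the controls (0.136 ± 0.107, SE; limma adjusted p = 0.882). Camk2a had 14.77, 14.72 and 14.69 in cKO arrays, against 14.79, 14.59 and 14.51 in controls (0.095 ± 0.110, SE). Syt4, a synaptotagmin of dense-core and other vesicles, had 13.48, 13.46 and 13.50 in cKO arrays, against 13.26, 13.39 and 13.58 in controls (0.073 ± 0.092, SE). On these SD arrays the oligodendrocyte markers averaged between 9.17 and 10.13 in cKO and between 9.59 and 10.95 in control arrays, with 14 of 15 negative, and their part was not tested.

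Averaged over diets, 16 members were positive and 19 negative, with a median of -0.003, while 60.5% of all genes were positive, with a median of 0.023. After quantile normalization 9 members were positive, with a median of -0.0311, and 47.9% of all genes, with a median of -0.00431. Tubb3 stood at 0.291 ± 0.076 (SE; limma adjusted p = 0.164) and Camk2a at 0.189 ± 0.078 (adjusted p = 0.401). Pclo stood at -0.157 ± 0.053 (adjusted p = 0.308) and Unc13a at -0.102 ± 0.044 (adjusted p = 0.423). All 4 active zone genes were negative, from -0.157 to -0.008. The classical terminal markers were close to 0: Snap25 at 0.023 (95% interval -0.080 to 0.127), Syt1, the main calcium sensor, at -0.017 (-0.151 to 0.117), Syp, the vesicle protein synaptophysin, at -0.049 (-0.175 to 0.077), and Vamp2, the main vesicle SNARE, at -0.003 (-0.229 to 0.222). Rbfox3, which encodes the nuclear antigen NeuN used to count neurons, stood at 0.051 (-0.064 to 0.166).

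**Figure D3:**
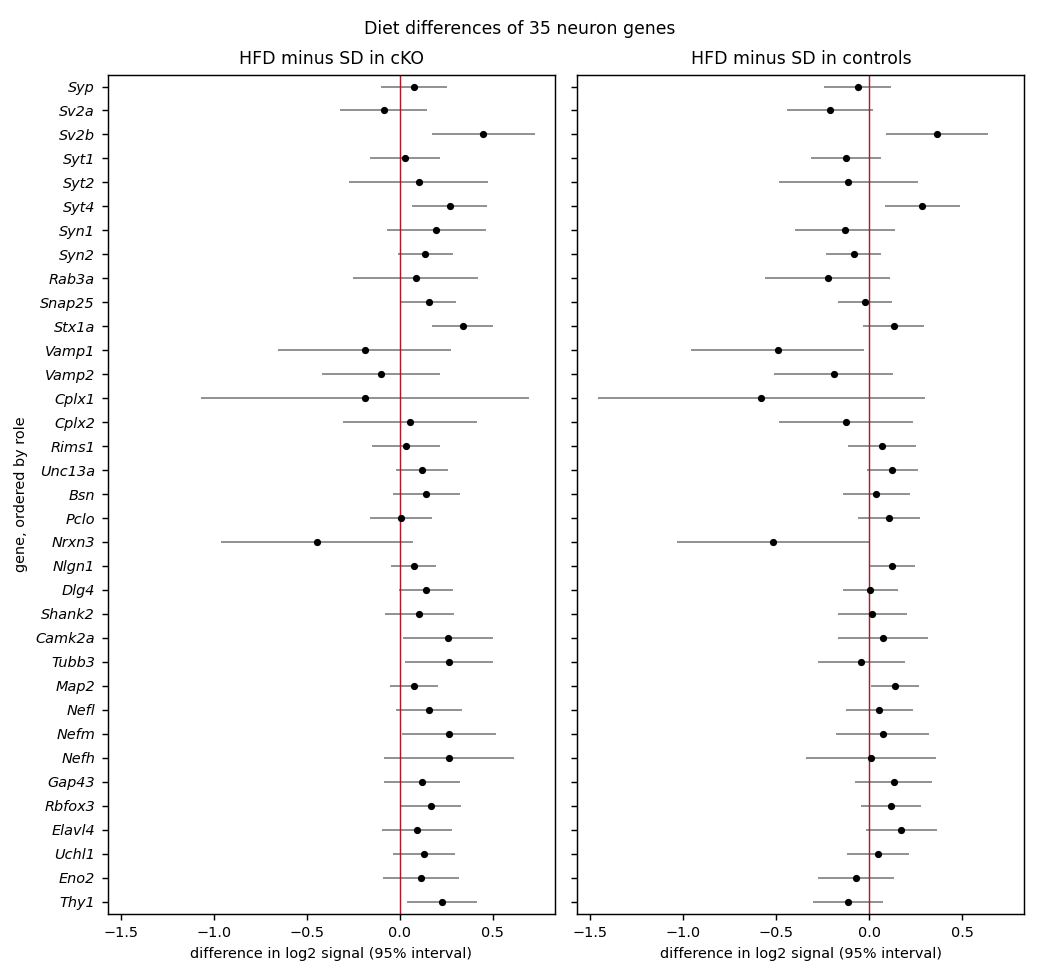
Differences in log2 signal between HFD and SD arrays in cKO (left) and control (right) mice for 35 neuron genes, with 95% intervals from limma. In cKO arrays 30 of 35 points lie above 0, in controls 19 of 35.

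HFD was set against SD within each genotype. In cKO arrays 30 of 35 members were positive, with a median of 0.120, against a median of 0.027 over all genes, of which 59.5% were positive. After quantile normalization 25 were positive, with a median of 0.0527 (47.5% of all genes positive), and without any 1 of the 6 arrays between 27 and 32 were positive, with medians from 0.0946 to 0.150. Without cKO HFD array 2 the median was 0.15. All 6 cytoskeletal genes and all 5 other general neuron genes were positive, with medians of 0.212 and 0.131, and so were 8 of 9 vesicle genes (0.104) and 4 of 4 active zone genes (0.077). Of the SNARE and complexin genes 3 of 6 were. For 12 of the 35 genes all HFD arrays lay above all SD arrays, which 11.9% of all genes showed, and for 0 they lay below (5.67%). None passed the adjusted threshold. In the same comparison 12 of the 15 oligodendrocyte markers were negative, with a median of -0.177, and their part in the neuron genes' values was not tested.

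Stx1a, which encodes syntaxin 1A, had the largest statistic of any member in the VMH. In cKO mice it had 9.22, 9.33 and 9.45 on HFD, against 8.95, 8.99 and 9.05 on SD. The groups were well apart, with means of 9.33 ± 0.118 and 8.99 ± 0.051 (SD, n = 3 each), and the difference of 0.339 ± 0.075 (SE; 95% interval 0.174 to 0.505) had a limma adjusted p of 0.209. Over the alternatives that p ranged from 0.0926 to 0.618 and never passed. In controls the means of Stx1a were 9.23 ± 0.072 on HFD and 9.10 ± 0.089 on SD (SD, n = 3 each), with overlapping arrays. Sv2b, a transporter-like protein of the vesicle membrane, had 10.84, 11.06 and 11.15 on HFD, against 10.63, 10.61 and 10.46 on SD in cKO mice (0.451 ± 0.125, SE; adjusted p = 0.300). Syt4 had 13.63, 13.75 and 13.87 on HFD, against 13.48, 13.46 and 13.50 on SD in cKO mice (0.270 ± 0.092, SE; adjusted p = 0.387). In both genes every HFD array lay above every SD array.

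**Figure D4:**
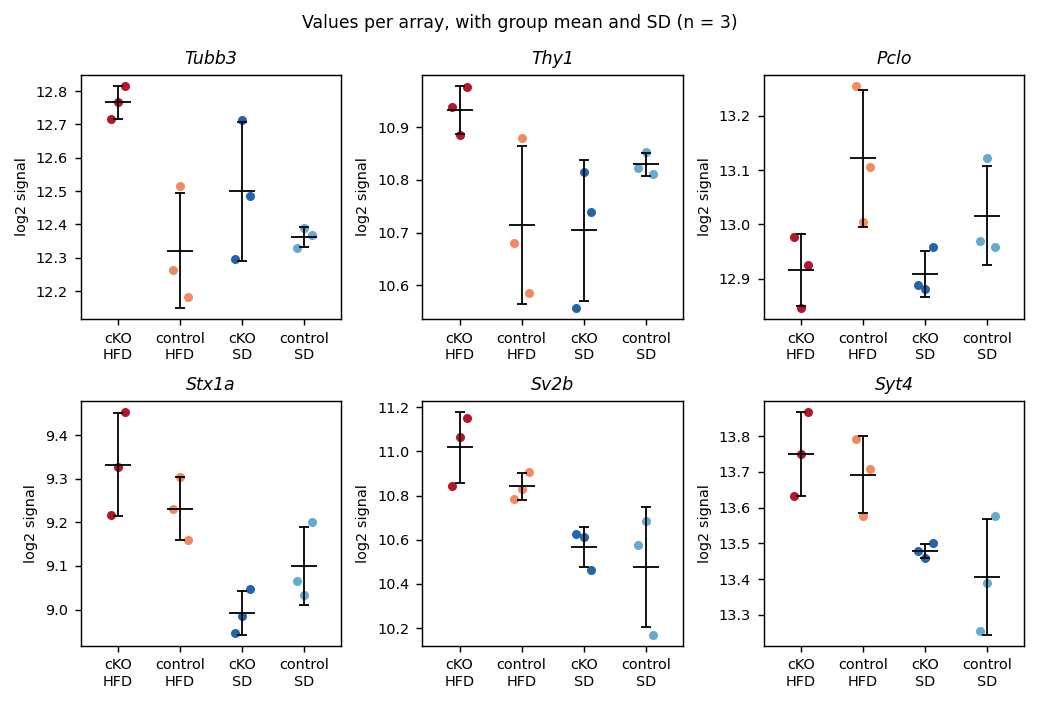
Log2 signal of 6 neuron genes in each VMH array (points), with the group mean and SD (bars, n = 3), groups running from cKO HFD to control SD. Tubb3 is highest in cKO HFD arrays, and Pclo is lower in cKO than in control arrays on HFD. Stx1a, Sv2b and Syt4 are higher on HFD than on SD in cKO mice, and their group means are also higher on HFD in controls. The vertical axes do not start at 0.

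At the lower end in cKO mice, Nrxn3 had 11.07, 10.60 and 11.41 on HFD, against 11.42, 11.60 and 11.40 on SD (-0.445 ± 0.234, SE; limma adjusted p = 0.589). Vamp1 had 11.38, 10.70 and 11.08 on HFD, against 10.83, 11.54 and 11.35 on SD (-0.188 ± 0.210, SE). Sv2a, a vesicle protein related to Sv2b, had 12.28, 12.06 and 12.21 on HFD, against 12.22, 12.36 and 12.23 on SD (-0.086 ± 0.105, SE). The arrays of all 3 genes overlapped between diets.

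In controls 19 of 35 members were positive and 16 negative, with a median of 0.009, close to the 0.017 of all genes, and after quantile normalization 14 were positive and the median was -0.0135, with 51.1% of all genes positive. All 15 oligodendrocyte markers were negative here, with a median of -0.351, and averaged 9.80 to 10.03 on HFD arrays, against 9.59 to 10.95 on SD arrays. Their part in the neuron genes' values was not tested. Syt4 had 13.79, 13.58 and 13.71 on HFD, against 13.26, 13.39 and 13.58 on SD, with the lowest HFD array level with the highest SD array (0.285 ± 0.092, SE; limma adjusted p = 0.470). Sv2b had 10.79, 10.83 and 10.91 on HFD, against 10.58, 10.68 and 10.17 on SD, without overlap (0.364 ± 0.125, SE; adjusted p = 0.488). Map2 had 15.16, 15.12 and 15.18 on HFD, against 14.91, 15.06 and 15.08 on SD, also without overlap (0.139 ± 0.059, SE; adjusted p = 0.555).

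Vamp1 had 11.30, 11.10 and 10.99 on HFD in controls, against 11.33, 11.71 and 11.82 on SD, just without overlap (-0.493 ± 0.210, SE; adjusted p = 0.562). Nrxn3 had 11.43, 10.62 and 11.15 on HFD in controls, against 11.53, 11.90 and 11.33 on SD (-0.518 ± 0.234, SE; adjusted p = 0.585). Sv2a had 12.24, 11.98 and 12.18 on HFD, against 12.13, 12.45 and 12.45 on SD (-0.212 ± 0.105, SE; adjusted p = 0.628). In all, 4 members had HFD arrays above all SD arrays (8.69% of all genes) and 1 below (3.78%). Sv2b and Syt4 had among the 3 highest statistics, and Vamp1, Nrxn3 and Sv2a the 3 lowest, in both genotypes. The diet comparisons of the genotypes share no arrays, but they share the estimate of each gene's spread. No member passed in either, and the reason for the shared order was not tested.

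The 9 genes not yet described with values had no call in any comparison. Syt2, a fast calcium sensor, differed by -0.0158 between cKO and control arrays on HFD, -0.231 on SD, and by 0.104 between HFD and SD in cKO mice and -0.112 in controls. Cplx2, which encodes complexin 2, differed by 0.143 between cKO and control arrays on HFD, -0.0374 on SD, and by 0.0559 between HFD and SD in cKO mice and -0.125 in controls. Shank2, which encodes a postsynaptic scaffold, differed by -0.0288 between cKO and control arrays on HFD, -0.117 on SD, and by 0.106 between HFD and SD in cKO mice and 0.0179 in controls. Nefl, which encodes the light neurofilament chain, differed by 0.0262 between cKO and control arrays on HFD, -0.077 on SD, and by 0.159 between HFD and SD in cKO mice and 0.0555 in controls. Nefl is one of the 12 genes whose HFD arrays all lay above the SD arrays in cKO mice. Nefh, which encodes the heavy neurofilament chain, differed by 0.0836 between cKO and control arrays on HFD, -0.172 on SD, and by 0.265 between HFD and SD in cKO mice and 0.00889 in controls. Gap43, which encodes a growth cone protein, differed by 0.0197 between cKO and control arrays on HFD, 0.0317 on SD, and by 0.12 between HFD and SD in cKO mice and 0.132 in controls. Elavl4, which encodes a neuronal RNA-binding protein, differed by -0.0241 between cKO and control arrays on HFD, 0.0556 on SD, and by 0.0936 between HFD and SD in cKO mice and 0.173 in controls. The arrays of Nefh, Gap43 and Elavl4 overlapped in all 4 comparisons. Uchl1, which encodes a neuronal ubiquitin hydrolase, differed by -0.00353 between cKO and control arrays on HFD, -0.0852 on SD, and by 0.131 between HFD and SD in cKO mice and 0.0493 in controls. Eno2, which encodes neuron-specific enolase, differed by 0.152 between cKO and control arrays on HFD, -0.0368 on SD, and by 0.117 between HFD and SD in cKO mice and -0.0715 in controls. Uchl1 had HFD arrays above all SD arrays in controls.

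Whether the genotype difference changed with diet was asked by the interaction, and 0 members passed. It was positive for 27 of 35 members, with a median of 0.134, against 0.010 over all genes, of which 52.7% were positive. After quantile normalization 27 were also positive (47.8% of all genes). The median was 0.211 without cKO HFD array 2. All 6 SNARE and complexin genes were positive (median 0.194) and 1 of the 4 active zone genes was. The oligodendrocyte markers had positive values too, 13 of 15 with a median of 0.170, and their part was not tested. Thy1 had the highest statistic at 0.343 ± 0.120 (SE; limma adjusted p = 0.856), followed by Syn2 at 0.221 ± 0.095 (adjusted p = 0.867). The interaction, the diet comparison in cKO mice and the genotype comparison on SD all use the cKO SD arrays, so their leans are not independent. Without cKO SD array 1 their medians were 0.0981, 0.0946 and -0.0482.

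Because BMAL1 binds the E-box CACGTG, the windows of 250 bases before the gene start were searched for it in RefSeq promoters of build GRCm38.p6, along with the GC box GGGCGG on both strands. Of the 35 genes 25 had a window. CACGTG, which reads the same on both strands, was found in 1 of the 25 (4.0%), Sv2b, against 6.86% of 27025 genes, and GGGCGG in 15 of 25 (60.0%), against 35.4%. The windows of Tubb3 and Stx1a are shown because these genes had the smallest p between genotypes on HFD and between diets in cKO mice, and that of Sv2b because it holds the E-box. A gene with several windows counts once, if any of them holds the motif. Capitals mark CACGTG or the GC box.
Tubb3, chr8:123411303-123411552, plus strand, 2 GC boxes: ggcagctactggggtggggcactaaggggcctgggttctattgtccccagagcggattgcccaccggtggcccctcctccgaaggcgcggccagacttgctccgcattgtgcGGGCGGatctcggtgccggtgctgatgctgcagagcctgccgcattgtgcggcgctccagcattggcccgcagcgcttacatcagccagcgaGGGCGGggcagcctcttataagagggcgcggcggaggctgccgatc
Stx1a, chr5:135023232-135023481, plus strand, 1 GC box: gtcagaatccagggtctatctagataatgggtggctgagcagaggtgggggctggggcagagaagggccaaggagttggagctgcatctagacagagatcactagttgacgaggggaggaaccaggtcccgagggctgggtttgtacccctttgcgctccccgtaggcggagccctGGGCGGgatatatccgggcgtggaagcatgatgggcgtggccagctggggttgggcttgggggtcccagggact
Sv2b, chr7:75302610-75302859, minus strand, 1 CACGTG: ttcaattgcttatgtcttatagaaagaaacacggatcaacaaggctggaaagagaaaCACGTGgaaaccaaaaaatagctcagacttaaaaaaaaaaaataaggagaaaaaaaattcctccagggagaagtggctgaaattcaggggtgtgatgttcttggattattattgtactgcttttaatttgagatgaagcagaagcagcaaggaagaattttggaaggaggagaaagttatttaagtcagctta
The E-box of Sv2b ends 187 bases before this gene start, and the table lists further starts for the gene. The genotype difference of Sv2b was 0.177 ± 0.125 on HFD and 0.090 ± 0.125 on SD (SE). A match of letters is a description of the window and not a binding site.

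Cplx1 was the least precisely measured member, with an SD within groups of 0.565, wider than that of 99.5% of genes tested. It had 11.04, 9.88 and 10.86 in cKO and 10.90, 10.36 and 10.59 in control arrays on HFD, and 10.10, 11.28 and 10.97 in cKO and 10.45, 11.45 and 11.69 in control arrays on SD. The group ranges overlapped in every comparison. Vamp1 (0.293) and Nrxn3 (0.328) were also among the most variable genes. The mean of the oligodendrocyte markers was highest on control SD array 3 (10.95), then on control SD array 2 (10.20), and lowest on cKO SD array 1 (9.17), then on cKO HFD array 2 (9.41). Cplx1 and Vamp1 were highest on those same first 2 arrays, in the same order, and lowest on those same last 2, in the opposite order. Syt2 was also highest on control SD array 3 (7.74) and lowest on cKO SD array 1 (6.90). The part of the oligodendrocyte content of a dissection in these values was not tested.

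Another 3 lists of neuron genes outside the set were read in the same fit. Of 42 other presynaptic genes 0 passed in limma in any comparison, with 1 to 4 at an unadjusted p under 0.05, and of 24 other postsynaptic genes 0 passed, with 0 to 5. The third list, of 39 other neuron genes, had 3 to 8 at that limit, and the share of all genes ran from 5.62% to 11.5% over the comparisons. Of the 39 other neuron genes 1 passed in the genotype comparisons, Stmn2, a microtubule regulator of growing axons, which was 0.891 ± 0.073 (SE) higher in cKO arrays on HFD (limma adjusted p = 0.000565) and 0.701 ± 0.073 on SD (adjusted p = 0.00156). What lies behind the Stmn2 difference was not tested. Next to Stmn2 on HFD came the tubulin gene Tubb2a, at 0.720 ± 0.135 (SE; limma adjusted p = 0.0649). Then by p came the presynaptic genes Sh3gl2 (0.315) and Rims4 (0.261), Nsg2 (0.249), a neuronal endosomal protein, and the presynaptic gene Svop (0.223). Among the 24 postsynaptic genes on HFD, Nrgn had the smallest p (difference 0.542), followed by Ppp1r9b (-0.372), and 15 were positive. On SD Stmn2 was followed by the adhesion gene Ncam1 (-0.154), Rims3 (-0.261), the tubulin gene Tubb4a (-0.440) and Nsg2 (0.204).

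With diet in cKO mice, 33 of the 39 other neuron genes, 21 of the 24 postsynaptic genes and 30 of the 42 presynaptic genes were positive, with medians of 0.085, 0.104 and 0.054, and 0 passed. Among those of smallest p were Baiap2 (0.368) and Homer1 (0.262), scaffold genes of the postsynaptic side, Doc2b (0.466), a calcium sensor, and Stmn3 (0.255). In controls 22 of 39, 16 of 24 and 20 of 42 were positive. Of the 9 markers of VMH neurons 8 were positive in cKO mice, with a median of 0.380, and 7 in controls, with a median of 0.243. Nptx2 stood at 0.489 and Fezf1 at 0.595 in cKO mice, and Adcyap1 at 0.859 and Slc17a6, the vesicular glutamate transporter of these neurons, at 0.318 in controls, with 0 past the threshold and, at an unadjusted p under 0.05, 6 of 9 in cKO mice (9.56% of all genes) and 2 of 9 in controls (8.49%). The VMH markers averaged 9.56 to 9.79 on cKO HFD arrays and 9.27 to 9.38 on cKO SD arrays, and their part in the values of the general neuron genes was not tested.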

How the data were processed

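The deposited table holds log2 signals, 1 column per array. The tools listed, per the submitters' processing notes, are Affymetrix Expression Console (version 1.1.1) and PLIER (version 2.0), without their roles. How the authors normalized between arrays, and the build, is not given in the sources used here. Depth has no counterpart on arrays, and their number limits the precision.

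Features were named through the platform annotation, and those with 1 symbol were used, with 827 symbols updated through a GRCm38.p6 gene table. The brightest feature stood for a gene, and genes were tested when their mean over the VMH arrays reached the table's median (5.507). The deposited log2 values were taken as they stand. Group means were fitted with limma 3.58.1 (R 4.3.3) for 4 groups over the 12 VMH arrays, without a block, and p was adjusted by Benjamini-Hochberg within a comparison. Tests were two-sided. Differences are on the log2 scale, in the direction named. The 95% intervals are not adjusted for the number of genes. The fit was tested on simulated data.

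The members and gene lists were chosen with earlier results of these data known. Full values are given for members past the threshold and for the 3 highest and 3 lowest statistics of each genotype comparison on 1 diet and of each diet comparison; Syn2, Snap25 and Cplx1 were added after their values were seen. Other members are given by role. Of the other lists, genes were named from the 4 smallest p of a comparison. Promoter sequences are from RefSeq.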

Additional observations from a re-analysis of the deposited data

How the results depend on the processing

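Each VMH count and median was recomputed after quantile normalization, with an offset of 16, without the filter, with the mean of a gene's features, with a trended and robust prior, with only the groups compared (which gives no value for the average over diets or the interaction), with array weights, with a replicate block and without each array in turn. The count of members past the threshold stayed at 0 in all of these but one: with array weights it was 1 for genotype on HFD (Tubb3). The median difference for genotype on HFD was -0.00709 after quantile normalization and 0.0210 to 0.118 without single arrays. For diet in cKO mice it was 0.0527 after quantile normalization, and for the interaction it was 0.0981 to 0.211 without single arrays. The cause of these shifts was not tested. The other medians moved by less than the spread between arrays (0.0506). Same-numbered arrays of the 2 genotypes correlated in their deviations at -0.190 to 0.280, and those of the 2 diets at -0.351 to 0.0295. Between genotypes 2 of 6 arrays on SD and 1 of 6 on HFD correlated best with their own number. The numbers thus gave no sign of pairing, but 3 arrays a group are too few to exclude it. With the replicate block Tubb3 on HFD stayed at 0.445 (limma adjusted p = 0.237), and the calls over all genes were 33 for genotype on HFD (49 without the block), 23 on SD (44) and 80 averaged over diets (107). With array weights the calls over all genes were 121 for genotype on HFD, 208 averaged over diets (107 without weights) and 20 for diet in cKO mice (1 without). The block within genotype, used for diet, and the leaving out of each BAT array were chosen after seeing the data. Signals near the top of the scale may limit how far a rise could show. Snap25 reached 18.61, where the highest value of any gene was 19.93, and such a limit was not tested.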

Other observations

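In BAT, where 10 of the 35 neuron genes passed the filter, 0 passed the adjusted threshold in limma in any comparison of genotype or diet. At an unadjusted p under 0.05 there was 1 of 10 for genotype averaged over diets (8.73% of 17124 genes tested in BAT), 3 of 10 for diet in cKO mice (22.9%) and 1 of 10 for diet in controls (23.0%), and 0 in the other comparisons. Among the 10 were Vamp2, with a mean log2 signal of 7.47 in BAT, and Vamp1, with 7.19. The count for genotype averaged over diets was also 0 without each BAT array in turn.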
